A study of Mus musculus with 56 samples.

Results

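Keratins and vimentin form the intermediate filaments of epithelial and mesenchymal cells. RNA levels are described here for 10 of these genes, chosen by symbol from the 20314 genes in the table. They are the simple or luminal keratins Krt8, Krt18, Krt7 and Krt19, the basal keratins Krt5, Krt14 and Krt15, the stress and basal keratin Krt17, the stress keratin Krt6a, and Vim, which encodes vimentin. All 10 had a row in the table and all 10 passed the filter of 1 CPM (reads per M reads of the sample's effective library size) in at least 2 samples, which left 13754 genes to test. Krt19 passed through the 8 fl/fl samples alone, and Krt15 through 11 samples of the D164A lines, so these members had to differ between lines.

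The cells were epithelial lines established from mammary tumors of MMTV-PyMT transgenic FVB/N female mice at 12 weeks of age, in which the polyoma middle T oncogene is driven by the mouse mammary tumor virus promoter. All lines carry this transgene and differ in the β-catenin gene Ctnnb1. Of 7 genotypes, fl/fl carried floxed but unmutated alleles. The others were D164A/fl, ΔC/fl and dm/fl, with a mutant allele beside a floxed allele, and D164A/-, ΔC/- and dm/-, in which the floxed allele had been removed. D164A is a substitution that prevents the binding of BCL9 proteins to β-catenin, ΔC is a truncation of its C-terminal transactivation domain, and dm carries both changes. Removal was by infection of the cultured cells with an adenovirus carrying Cre and GFP followed by sorting for GFP, as the methods describe it for the mutant lines. Each line was sampled as 2 biological replicates without Wnt3a, with Wnt3a (100 ng/ml, 3 days), without TGFβ and with TGFβ (2 ng/ml, 4 days), which gave 28 conditions and 56 samples. The labels give neither the number of lines per genotype nor separate cultures for the replicates. A genotype and a cell line therefore cannot be told apart, and p-values measure only the spread between these samples. The question posed by the design is how mutant β-catenin, the loss of the second allele and each cytokine go with the filament genes of these tumor cells.

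Keratins assemble only as pairs of a type I and a type II chain, and the pair in use marks the kind of epithelium. In the mammary gland, luminal cells make the type II chains KRT8 and KRT7 and the type I chains KRT18 and KRT19, and basal and myoepithelial cells make the type II chain KRT5 with the type I chains KRT14, KRT15 and KRT17. KRT6A, a type II chain, is induced in wounded and hyperproliferating epithelium. Vimentin forms a filament on its own, is typical of mesenchymal cells, and is widely used as a marker of epithelial-mesenchymal transition (EMT), a change that TGFβ can induce in mammary epithelial cells.

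The samples held between 22.396 M and 33.682 M reads assigned to genes (median 26.808 M), and 3 reads, taken as the smallest count that is told apart from 0 by counting error, corresponded to 0.0917 to 0.146 CPM. Replicates agreed less in the Wnt3a experiment than in the TGFβ experiment. Of the genes tested, 52% differed more than 2-fold between the untreated dm/fl replicates of the Wnt3a experiment and 41% between the Wnt3a-treated dm/- replicates, against at most 5.83% in any condition of the TGFβ experiment. In both of these pairs, differences ran with transcript GC content (Spearman 0.819 and -0.811 across genes). The members are GC-rich, at 53.9% to 58.9% against a median of 51% over the genes tested. No 2 samples were alike enough to be the same library. Ctnnb1 reads lay between 531.5 and 3188 CPM and were present in every sample. They sum all exons, and show neither the mutations nor the exons that Cre removes, so they do not check the labels.

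Markers set the lines in context. Cdh1 and Epcam, which mark epithelium, were present in all 56 samples (49.9 to 1050 and 75.3 to 713 CPM). The myoepithelial contractile genes Myh11 and Cnn1 did not exceed 0.776 CPM in any sample, whereas Acta2, at most 2.43 CPM as a line mean in untreated cells, reached 189 CPM over all samples. Oxtr, the oxytocin receptor gene of myoepithelial cells, averaged 62.3 CPM in untreated D164A/- and 11.8 CPM in D164A/fl cells, and 0.576 CPM or less in the other lines. Elf5, a luminal progenitor factor, averaged 494 CPM in untreated D164A/- and 104 CPM in D164A/fl cells but 3.59 CPM or less in the other lines. The luminal markers Prlr, Kit and Foxa1 were likewise highest in the 2 D164A lines. Gata3, another luminal marker, was present in every sample, at 9.88 CPM or more. Its untreated mean was 126 CPM in D164A/-, 77.9 in dm/fl, 62.5 in D164A/fl, 53.3 in ΔC/fl, 43.2 in dm/-, 32.6 in ΔC/- and 24.6 in fl/fl cells. Trp63, the basal cell factor p63, averaged 77.8 CPM in fl/fl, 95 in D164A/fl, 53.3 in D164A/-, 18 in ΔC/fl and 51.8 in dm/fl cells, and was at 0.264 and 0.568 CPM in ΔC/- and dm/- cells. In bulk samples, fewer cells of a type and less RNA per cell cannot be told apart.

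The type II genes lie together on chromosome 15 and the type I genes on chromosome 11, except Krt18, which is type I but lies 23.9 kb from its partner Krt8. Krt15 lies 4.9 kb from Krt19, and Krt6a 12.8 kb from Krt5, so neighbours could be compared. RefSeq promoter entries on GRCm38.p6 began at the gene's start for 5 members, Krt8, Krt18, Krt7, Krt5 and Vim, and the 250 bases before the start of 4 of them are shown because their RNAs, given below, followed different patterns. Capitals mark matches, on either strand, to the core promoter motif TATAAA, to the E-box bound by Zeb and Snail factors, spelled CAGGTG, and to the SMAD box, spelled CAGACA. The AP-1 site TGANTCA, the Sp1 site GGGCGG and the site CTTTGAT of TCF and LEF factors were searched as well.
Krt8, chr15:102004343-102004592, minus strand: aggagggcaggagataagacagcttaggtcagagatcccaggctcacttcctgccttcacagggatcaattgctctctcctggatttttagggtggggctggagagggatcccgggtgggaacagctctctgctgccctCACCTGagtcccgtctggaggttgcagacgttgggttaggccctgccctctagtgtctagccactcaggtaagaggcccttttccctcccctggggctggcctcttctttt
Krt18, chr15:102027966-102028215, plus strand: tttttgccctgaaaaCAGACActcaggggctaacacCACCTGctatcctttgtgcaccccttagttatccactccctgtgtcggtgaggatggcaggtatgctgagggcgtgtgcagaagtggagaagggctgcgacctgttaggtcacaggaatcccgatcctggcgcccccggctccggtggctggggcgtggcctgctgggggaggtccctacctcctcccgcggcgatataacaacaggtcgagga
Krt5, chr15:101712906-101713155, minus strand: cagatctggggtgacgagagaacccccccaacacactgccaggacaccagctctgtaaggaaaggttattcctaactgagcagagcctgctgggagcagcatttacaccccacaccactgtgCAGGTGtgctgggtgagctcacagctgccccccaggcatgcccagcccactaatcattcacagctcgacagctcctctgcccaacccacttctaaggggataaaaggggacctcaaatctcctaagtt
Vim, chr2:13574061-13574310, plus strand: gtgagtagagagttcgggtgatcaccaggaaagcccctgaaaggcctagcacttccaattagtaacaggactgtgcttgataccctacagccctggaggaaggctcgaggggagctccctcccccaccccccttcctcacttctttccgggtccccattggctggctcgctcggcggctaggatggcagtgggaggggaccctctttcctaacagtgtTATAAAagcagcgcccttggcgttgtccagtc
The E-box letters, read here as CACCTG or CAGGTG, stood in 4 of the 5 promoters, at 111 bases before the start of Krt8, 214 before Krt18, 128 before Krt5 and 44 before Krt7, and not in that of Vim. They occur in 17.2% of 32851 promoter windows of this length. The TATA box letters stood only before Vim (12.4% of windows), and the SMAD box letters before Krt18 and Krt7 (17.1%). The Sp1 letters were found only before Krt7 (32.7% of windows), and the AP-1 and TCF/LEF letters in none of the 5. The promoters of Krt6a, Krt15, Krt17 and Krt19 had no entry and that of Krt14 began inside the gene.

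The levels of the lines were first compared without cytokine, as the mean of 4 untreated libraries per line. In these cells, the simple keratins Krt8, Krt18 and Krt7 were expressed in every line, and Krt8 and Krt18 did not differ from fl/fl cells in any mutant line. Krt7, Krt19, the basal and stress keratins and Vim each differed from fl/fl cells in 1 or more of the mutant lines. Members with an adjusted p up to 0.05 that also differed by 1 or more on the log2(CPM + 1) scale were called, a scale that understates the change of low genes. Of 60 member and line pairs, 30 differed from fl/fl cells, 9 higher and 21 lower, where 10.1% and 8.83% of all gene and line pairs tested did. By line, 4 of 10 members differed in D164A/fl, 7 in D164A/-, 5 in ΔC/fl, 5 in ΔC/-, 4 in dm/fl and 5 in dm/- cells, where 16.2%, 18.9%, 16.6%, 23.0%, 21.1% and 17.9% of all genes tested did. Without Krt19 and Krt15, 22 of 48 pairs differed. The median log2 difference of the 10 members lay between -1.26 (dm/-) and 0.42 (D164A/fl), beside medians of -0.003 to 0.02 over all genes tested.

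**Figure D1:**
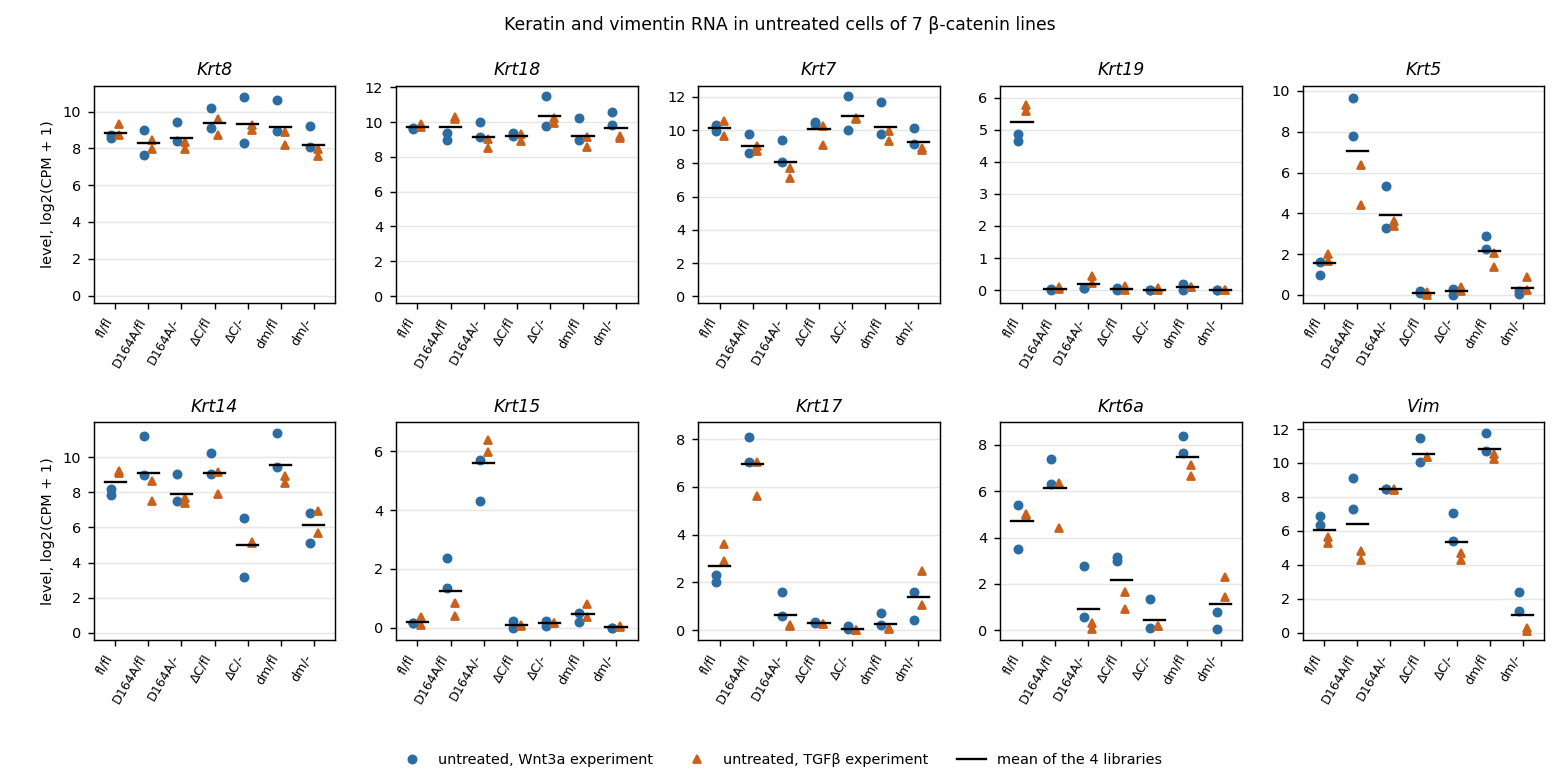
Levels of the 10 genes in untreated cells, on the log2(CPM + 1) scale, by line. Points are single libraries of the Wnt3a and TGFβ experiments and bars are means of the 4 libraries. Krt8, Krt18 and Krt7 stayed high in every line, Krt19 exceeded 0.343 CPM only in fl/fl cells, Krt15 reached 18.9 CPM or more only in D164A/- cells, and Vim ranged from 0.0917 CPM in dm/- to 3536 CPM in dm/fl cells.

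Krt8 (Entrez Gene 16691, chr15:101996711-102004342 on GRCm38, as are all positions below) and Krt18 (Entrez Gene 16668, chr15:102028216-102032026) encode the standard luminal pair. Krt8 was at 371, 424, 422 and 649 CPM in the untreated fl/fl libraries and Krt18 at 804, 785, 852 and 941 CPM. Over the lines, the mean of Krt8 ran from 323 CPM in dm/- to 807 CPM in ΔC/- cells and that of Krt18 from 590 CPM in ΔC/fl to 1481 CPM in ΔC/- cells, and in this order every line overlapped its neighbours. Neither gene differed from fl/fl cells in any of the 6 mutant lines, with log2 differences of -0.63 to 0.63. Per kb of coding length, the mean level of Krt18 exceeded that of Krt8 in 6 of the 7 lines, for example at 666 against 317 CPM per kb in fl/fl cells. The exception was ΔC/fl, at 465 against 491 CPM per kb. Per kb of mRNA length, Krt18 was the higher in ΔC/fl cells as well, at 410.2 against 368.5 CPM per kb. Reads of both genes can be lost to their processed pseudogenes, since only unique hits were kept.

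Krt7 (Entrez Gene 110310, chr15:101412403-101427806), a type II chain of luminal and ductal cells, was at 976, 1287, 793 and 1518 CPM in untreated fl/fl libraries. In D164A/- cells it was at 276, 679, 140 and 209 CPM. All 4 values lay below those of fl/fl cells, and the log2 difference of -2.02 ± 0.46 (SE) was significant (limma, adjusted p = 0.000608). Within the Wnt3a experiment alone, the difference was -1.37 and was no longer significant (limma, adjusted p = 0.141). In D164A/fl cells the values of 401, 873, 433 and 526 CPM overlapped those of fl/fl cells, and the difference of -1.06 did not pass the test. Without replicate 1 of untreated ΔC/- cells in the Wnt3a experiment, Krt7 and Krt18 would both count as higher in ΔC/- than in fl/fl cells, by 1.28 and 1.07 on the log2 scale (limma, adjusted p = 0.0366 and 0.0182), and Krt7 as higher in ΔC/- than in ΔC/fl cells (1.34, adjusted p = 0.0468).

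Krt19 (Entrez Gene 16669, chr11:100140810-100145926), the smallest type I keratin, which lacks the usual tail domain and is made by luminal cells, separated fl/fl from every mutant line. Untreated fl/fl libraries had 28.4, 24.3, 47.4 and 53.5 CPM. Over all treatments, the 8 fl/fl libraries held 566 to 1429 reads each (24.3 to 55 CPM). The 48 libraries of the mutant lines held 53 reads of Krt19 together, with no read in 29 of them and at most 9 reads (0.343 CPM) in any. The lowest fl/fl library was thus 70.9 times the highest library of the other lines, and the groups did not overlap. Log2 differences from fl/fl cells lay between -5.04 and -5.22 in the 6 mutant lines (limma, largest adjusted p = 9.6e-27). Krt19 passed the filter through fl/fl samples alone, so a difference was fixed in advance and these p-values add no support. D164A/fl, ΔC/fl and dm/fl cells keep a floxed allele and lacked Krt19 in the same way as the lines without it, and its neighbour Krt15 showed no such pattern.

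Of the basal keratins, Krt5 (Entrez Gene 110308, chr15:101707069-101712905), the type II basal chain, was high in the D164A lines. Untreated D164A/fl libraries had 222, 805, 20 and 81.4 CPM, and D164A/- libraries had 8.82, 39.2, 9.38 and 11.5 CPM. The fl/fl libraries had 0.978, 2.03, 2.13 and 2.96 CPM, so that both D164A lines lay above fl/fl cells without overlap. The log2 difference was 5.5 ± 0.5 (SE) in D164A/fl and 2.36 ± 0.5 in D164A/- cells (limma, adjusted p = 7.4e-11 and 0.000269). Within the TGFβ experiment alone, the latter was 1.69 and did not pass the test (limma, adjusted p = 0.0813). Untreated D164A/fl cells averaged 513.5 CPM of Krt5 in the Wnt3a experiment and 50.7 CPM in the TGFβ experiment, without overlap. In ΔC/fl and ΔC/- cells Krt5 was at most 0.311 CPM, lower than in fl/fl cells by -1.46 and -1.35 on the log2 scale (limma, adjusted p = 0.0238 and 0.0291), but neither call held within either experiment alone (adjusted p = 0.0747 to 0.27), and both were lost without fl/fl replicate 2 of either experiment (limma, adjusted p = 0.0719 to 0.102). The ΔC/fl call was also lost without ΔC/fl replicate 2 of the Wnt3a or replicate 1 of the TGFβ experiment (0.0576 and 0.0636), and the ΔC/- call without ΔC/- replicate 1 of the Wnt3a experiment or either replicate of the TGFβ experiment (0.0534 to 0.0786).

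Krt14 (Entrez Gene 16664, chr11:100203162-100207510), the type I partner of KRT5, was expressed in every line, including lines that had almost no Krt5. Untreated fl/fl libraries had 227, 296, 553 and 597 CPM. Values were 7.99, 93.3, 33.2 and 35.7 CPM in ΔC/- and 34.2, 115, 121 and 49.8 CPM in dm/- cells. Both lines lay below fl/fl cells without overlap, with log2 differences of -3.59 ± 0.72 and -2.45 ± 0.72 (SE; limma, adjusted p = 0.000146 and 0.00842). The call for dm/- cells was lost without their replicate 1 of the Wnt3a experiment (-2.02, limma, adjusted p = 0.0584) and within that experiment (-2.03, adjusted p = 0.15). The other 4 lines overlapped fl/fl cells. In ΔC/fl cells, Krt14 averaged 436 CPM per kb of coding length and Krt5 0.0416 CPM per kb, so these cells had the type I gene of the basal pair without its type II partner.

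Krt15 (Entrez Gene 16665, chr11:100131759-100135949), a type I chain of basal cells with progenitor features in stratified epithelia, was found in D164A/- cells. The 4 untreated D164A/- libraries had 50.6, 18.9, 82.1 and 62 CPM, and those of fl/fl cells 0.126, 0.115, 0.282 and 0.0749 CPM (2 to 7 reads). The groups did not overlap, and the log2 difference was 5.39 ± 0.32 (SE; limma, adjusted p = 9.38e-16). Krt15 passed the filter through D164A samples alone, so the test adds no support that a D164A line differs from fl/fl cells. D164A/fl libraries had 1.55, 4.18, 0.318 and 0.804 CPM, a difference from fl/fl cells of 1.05 (limma, adjusted p = 0.0105) that was 0.39 and not significant within the TGFβ experiment (adjusted p = 0.633). This call was lost as well without D164A/fl replicate 2 of either experiment (0.79 and 0.93, limma, adjusted p = 0.0937 and 0.0528) or fl/fl replicate 2 of the TGFβ experiment, where the difference was 0.98. No library of the ΔC and dm lines exceeded 0.746 CPM.

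Krt17 (Entrez Gene 16667, chr11:100256215-100261029), a type I chain of basal and wounded epithelium, was highest in D164A/fl cells, at 132, 274, 48.4 and 132 CPM. In fl/fl cells it was at 3.91, 3.03, 11.2 and 6.44 CPM, and the groups did not overlap (log2 difference 4.26 ± 0.42 SE, limma, adjusted p = 5.21e-10). In the other 5 mutant lines it was lower than in fl/fl cells, by -1.31 to -2.64 on the log2 scale. For D164A/- cells, this was -1.06 and not significant within the Wnt3a experiment (limma, adjusted p = 0.231). The smallest of these, in dm/- cells (0.338, 2.06, 4.58 and 1.1 CPM), overlapped fl/fl cells, was lost without replicate 1 of dm/- cells in the Wnt3a experiment (adjusted p = 0.103), without replicate 2 of dm/- cells in the TGFβ experiment (0.121) or replicate 1 of untreated fl/fl cells in that experiment (0.0684, limma), and was not significant in either experiment alone or with edgeR (adjusted p = 0.0649). Krt17 is close in sequence to Krt14 and Krt16, and reads that fit more than one of them were discarded.

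Krt6a (Entrez Gene 16687, chr15:101689928-101694305) was at 10.4, 41.1, 31.1 and 30.3 CPM in untreated fl/fl cells. In dm/fl cells it was at 201, 330, 141 and 102 CPM, above all fl/fl libraries (log2 difference 2.75 ± 0.61 SE, limma, adjusted p = 0.000558), although within the TGFβ experiment the difference of 1.93 did not pass the test (adjusted p = 0.117). It was lower than in fl/fl cells in D164A/-, ΔC/fl, ΔC/- and dm/- cells, by -2.54 to -4.26 on the log2 scale, and no library of these lines reached the lowest of fl/fl cells, the highest being 7.88 CPM. The call for ΔC/fl cells did not hold in the Wnt3a experiment alone (-1.38, limma, adjusted p = 0.282). In D164A/fl cells, at 78.2, 168, 20.3 and 82 CPM, Krt6a did not pass the test (1.41, adjusted p = 0.0846), but did within the Wnt3a experiment (2.41, adjusted p = 0.039) and without replicate 2 of fl/fl cells in that experiment or replicate 1 of D164A/fl cells in the TGFβ experiment (limma, adjusted p = 0.0382 and 0.0349). Its near copy Krt6b shares sequence with it, so the split between them is uncertain.

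Vim (Entrez Gene 22352, chr2:13574311-13582826) varied over a wide range. Untreated dm/fl libraries had 3536, 1660, 1501 and 1182 CPM and ΔC/fl libraries 1046, 2838, 1281 and 1288 CPM. Next came D164A/- cells, with 354, 346, 350 and 338 CPM. The fl/fl libraries had 81.6, 119, 38.3 and 49.8 CPM, and the 4 dm/- libraries had 1.47, 4.39, 0.0917 and 0.212 CPM. Thus dm/fl, ΔC/fl and D164A/- cells lay above and dm/- cells below fl/fl cells, each without overlap, by log2 differences of 4.75, 4.48, 2.38 and -5.02 (SE 0.55 each; limma, largest adjusted p = 0.000703). The difference of D164A/- cells was 1.82 within the Wnt3a experiment alone (limma, adjusted p = 0.0946). D164A/fl cells had 158, 548, 18.7 and 27.7 CPM, higher in the Wnt3a experiment than in the TGFβ experiment, and ΔC/- cells had 41.5, 130, 18.2 and 25.1 CPM, and both lines overlapped fl/fl cells.

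Fibroblasts express Vim and can persist in tumor cultures, so 8 fibroblast markers were read beside it. Their summed level was 165 to 554 CPM in untreated dm/fl, 110 to 779 in ΔC/fl and 70.4 to 105 in D164A/- cells. It was 54.3 to 68.6 in D164A/fl, 5.58 to 17.3 in fl/fl, 8.29 to 9.98 in ΔC/- and 6.56 to 11.1 CPM in dm/- cells. The sum was highest in dm/fl and ΔC/fl cells, the lines with most Vim. In D164A/fl cells it exceeded that of fl/fl cells. Yet Vim was lower there within the TGFβ experiment, at 18.7 and 27.7 against 38.3 and 49.8 CPM. Pdgfra and Pdgfrb made up most of the sum in ΔC/fl and dm/fl cells (line means of 114 and 277 CPM, and 145 and 146 CPM). In D164A/fl and D164A/- cells the sum was nearly all Pdgfra (60.7 and 85.6 CPM), with Pdgfrb at 0.0345 CPM or less. The collagen gene Col3a1 averaged 36.5 CPM in dm/fl and 17 CPM in ΔC/fl cells but 1.28 CPM or less in the other lines. Col1a1 and Col1a2 averaged at most 4.31 and 6.71 CPM in any untreated line, and over all samples Col3a1, Col1a1 and Col1a2 reached 184, 70.9 and 15.6 CPM. Of the defining markers, Lum and Thy1 did not exceed 0.08 and 0.116 CPM in any of the 56 samples, and Dcn 3.49 CPM. The epithelial gene Cdh1 averaged 303 CPM in ΔC/fl and 285 CPM in dm/fl against 789 CPM in fl/fl cells, but also 294 CPM in ΔC/- cells, which had little Vim. The part of other cells in the Vim levels was not tested.

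Removal of the floxed allele was read by setting D164A/-, ΔC/- and dm/- cells against the line with the same mutant allele and a floxed allele. Vim differed in all 3 comparisons but not in 1 direction, and the basal and stress keratins were mostly lower in the lines without the floxed allele. Of 30 member and allele pairs, 14 differed, 4 higher and 10 lower in the deleted line, beside 5.62% and 7.71% of all gene and allele pairs tested. These were 5 of 10 members for D164A, 4 for ΔC and 5 for dm, where 9.45%, 12.2% and 18.3% of all genes tested differed.

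**Figure D2:**
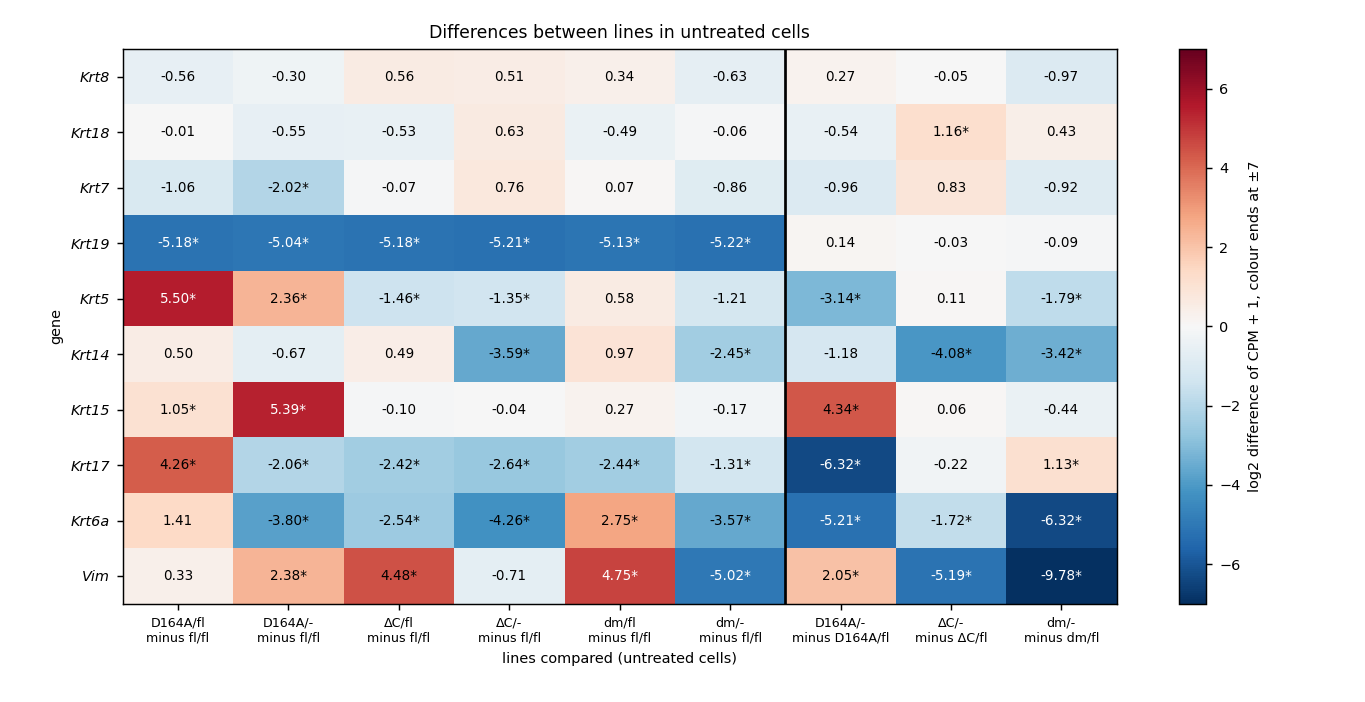
Log2 differences of CPM + 1 between lines in untreated cells, by gene (rows) and comparison (columns, the last 3 being deleted against floxed second allele). Asterisks mark an adjusted p of at most 0.05 with an absolute log2 difference of at least 1. The row of Krt19 lies between -5.04 and -5.22 against fl/fl cells and near 0 between deleted and floxed lines, and Vim runs from 4.75 in dm/fl against fl/fl to -9.78 in dm/- against dm/fl cells.

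Vim was lower in dm/- than in dm/fl cells by -9.78 ± 0.55 (log2, SE; limma, adjusted p = 7.99e-16) and lower in ΔC/- than in ΔC/fl cells by -5.19 ± 0.55 (adjusted p = 4.33e-09). It was higher in D164A/- than in D164A/fl cells by 2.05 ± 0.55 (limma, adjusted p = 0.00601). The dm and ΔC libraries given above did not overlap, whereas the D164A lines did. The difference between the D164A lines was 0.25 within the Wnt3a experiment (limma, adjusted p = 1) and was lost without replicate 1 of untreated D164A/fl cells in that experiment (1.61, adjusted p = 0.0639). Where Vim was lower in the deleted line, the fibroblast marker sum was lower as well.

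Krt6a was lower in the deleted line for each allele, by -5.21 ± 0.61 for D164A, -1.72 ± 0.61 for ΔC and -6.32 ± 0.61 for dm (log2, SE; limma, adjusted p = 6.73e-08, 0.0368 and 4.03e-10). The ΔC call rests on few reads, since ΔC/fl cells had 0.92 to 7.88 CPM. It was lost without 6 of the 8 libraries compared, these being ΔC/fl replicates 1 and 2 and ΔC/- replicate 1 of the Wnt3a experiment and ΔC/fl replicate 2 and ΔC/- replicates 1 and 2 of the TGFβ experiment (limma, adjusted p = 0.0721 to 0.177), and in either experiment alone.

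The basal keratins divided by allele. Krt5 and Krt17 were lower and Krt15 higher in D164A/- than in D164A/fl cells (-3.14, -6.32 and 4.34 on the log2 scale, limma, adjusted p = 1.17e-05, 1.74e-13 and 1.43e-12). The difference of Krt5 was -1.87 within the TGFβ experiment (adjusted p = 0.0534). Krt14 was lower in ΔC/- than in ΔC/fl (-4.08, limma, adjusted p = 4.65e-05) and in dm/- than in dm/fl cells (-3.42, adjusted p = 0.000309), the latter being -2.42 in the TGFβ experiment alone (adjusted p = 0.0929). Krt5 was also lower in dm/- cells by -1.79 (limma, adjusted p = 0.00496), a difference of -1.15 in the TGFβ experiment alone (adjusted p = 0.288). Krt17 was higher in dm/- than in dm/fl cells by 1.13 (limma, adjusted p = 0.0352), but this call ended when any of 5 libraries was left out (dm/fl and dm/- replicate 2 of the Wnt3a experiment, dm/fl replicates 1 and 2 and dm/- replicate 1 of the TGFβ experiment, adjusted p = 0.0732 to 0.218) and within the Wnt3a experiment (0.56, adjusted p = 0.564).

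Of the simple keratins, Krt18 was higher in ΔC/- than in ΔC/fl cells by 1.16 ± 0.35 (log2, SE; limma, adjusted p = 0.0118). The ΔC/- libraries had 866, 2874, 976 and 1209 CPM and the ΔC/fl libraries 590, 656, 481 and 631 CPM, without overlap. The call was lost without ΔC/- replicate 2 of the Wnt3a experiment (0.73, adjusted p = 0.124) and within either experiment. Within the TGFβ experiment alone, Krt18 was lower in D164A/- than in D164A/fl cells (-1.49, adjusted p = 0.0254), which it was not over both experiments (-0.54). Without the untreated dm/fl replicate 2 of the Wnt3a experiment, 1 of the pair that stood apart, Krt7 and Krt8 would count as lower in dm/- than in dm/fl cells (-1.39 and -1.4, adjusted p = 0.0191 and 0.0422).

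More of the 10 members changed with TGFβ than with Wnt3a. Vim was called higher with TGFβ in 3 of 7 lines, and Krt6a, Krt15, Krt5 and Krt14 were each called lower in 1 or 2 lines. Counted by libraries without overlap, Vim was higher in 6 lines. By the same count Krt15 was lower in 6 lines, Krt6a and Krt19 in 4, and Krt5 and Krt14 in 3, with Krt14 higher in 1. Krt5 and Vim are on a list of TGFβ genes that the study chose on these samples, so their direction is not independent of that choice. With the fit over all 56 samples, 8 of 70 member and line pairs changed, 3 higher and 5 lower, where 3.11% and 3.24% of all gene and line pairs did. By line, 2 of 10 members changed in fl/fl, 0 in D164A/fl, 2 in D164A/-, 1 in ΔC/fl, 1 in ΔC/-, 1 in dm/fl and 1 in dm/- cells, where 6.25%, 3.38%, 4.06%, 7.74%, 6.55%, 10.3% and 6.12% of all genes tested changed. In a fit on only the 28 samples of the TGFβ experiment, added after the data were seen because their replicates agree better, 21 of 70 pairs changed, 13 higher and 8 lower, and these held the same 8. Treated and untreated libraries did not overlap in 49 of 70 pairs, 26 higher and 23 lower. Some of the lower pairs rest on few reads. These include Krt19 in D164A/fl, D164A/- and dm/fl cells, with at most 9 reads in an untreated library. They also include Krt15 outside D164A/- cells, where no untreated library exceeded 0.804 CPM. Krt6a in ΔC/- cells is another such pair, with 4 and 4 reads untreated and 2 and 0 with TGFβ. The median change of the 10 members ran from -0.18 in D164A/fl to 0.79 in dm/- cells, beside medians of -0.03 to 0.03 over all genes tested. Among all gene and line pairs tested, 28.7% were higher and 28.5% lower without overlap, so that non-overlap alone was common.

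**Figure D3:**
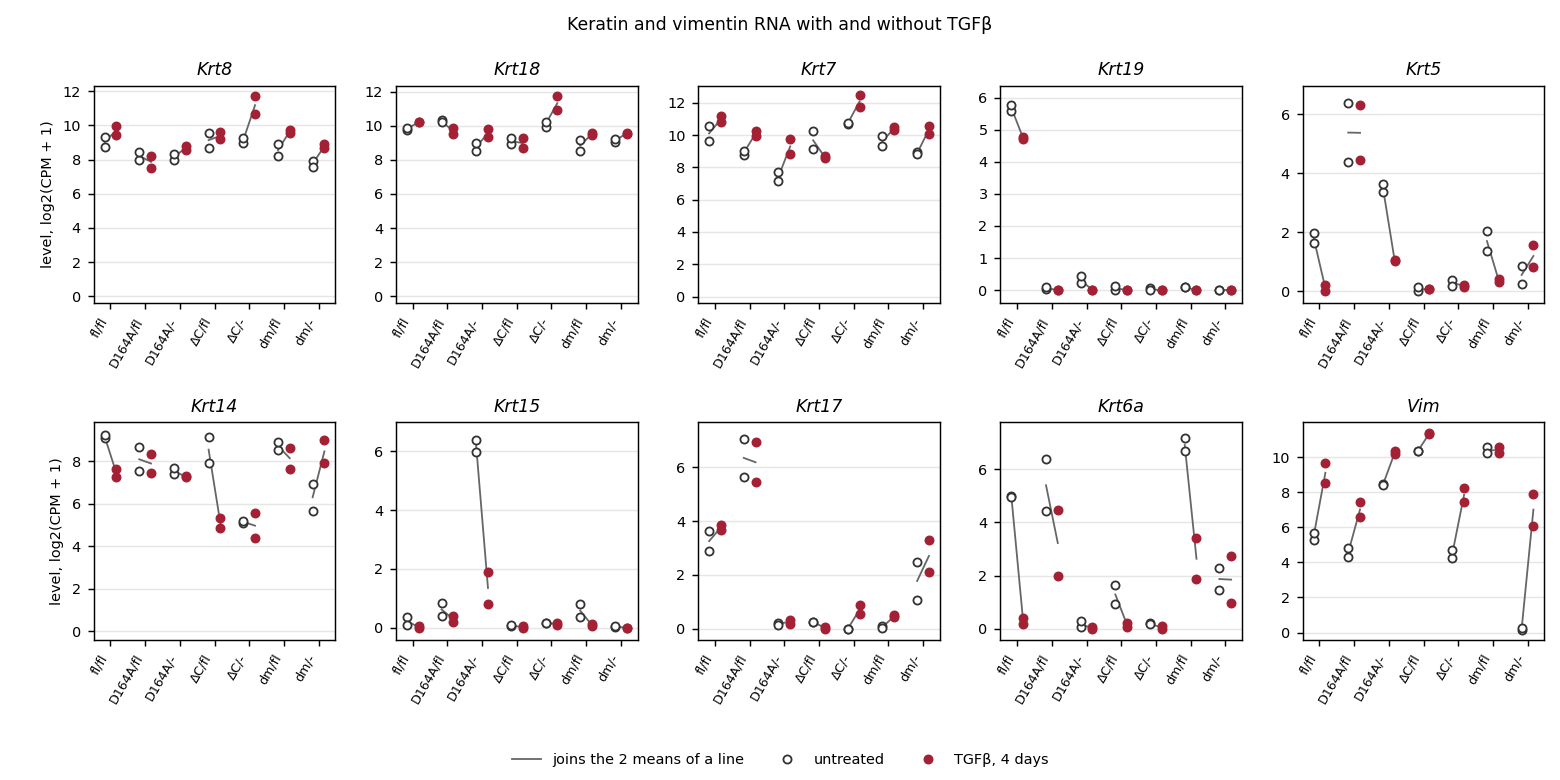
Levels of the 10 genes on the log2(CPM + 1) scale in untreated (open) and TGFβ-treated (filled) libraries of each line, 2 libraries per group, with lines that join the means. Vim rose most in dm/- cells, from 0.0917 and 0.212 to 67.2 and 242 CPM, and did not move in dm/fl cells, Krt15 fell in D164A/- cells, and Krt6a fell in fl/fl and dm/fl cells.

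Vim rose in fl/fl cells from 38.3 and 49.8 CPM to 375 and 808 CPM with TGFβ. It rose in ΔC/- cells from 18.2 and 25.1 to 172 and 305 CPM, and in dm/- cells from 0.0917 and 0.212 CPM (3 and 6 reads) to 67.2 and 242 CPM. In each of these lines both treated libraries lay above both untreated libraries. The log2 changes were 3.63, 3.36 and 6.81 (SE 0.77 each; limma, adjusted p = 0.00138, 0.00351 and 1.09e-07). The call in fl/fl cells was lost without TGFβ replicate 2 (3.07, limma, adjusted p = 0.0578), and that in ΔC/- cells without untreated replicate 1 (3.14, adjusted p = 0.0582) or TGFβ replicate 2 (2.95, adjusted p = 0.0785). After TGFβ, the level in dm/- cells was still below that of untreated dm/fl cells.

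In the other lines, Vim went from 18.7 and 27.7 to 94.7 and 175 CPM in D164A/fl, from 350 and 338 to 1293 and 1139 CPM in D164A/-, and from 1281 and 1288 to 2567 and 2660 CPM in ΔC/fl cells. These libraries did not overlap either, but the log2 changes of 2.45, 1.82 and 1.02 did not pass the test over all samples (limma, adjusted p = 0.0648, 0.258 and 0.599). The first 2 passed it in the fit of the 28 samples (adjusted p = 0.00109 and 0.0103). In dm/fl cells, which had 1501 and 1182 CPM untreated, Vim was at 1497 and 1216 CPM with TGFβ, a log2 change of 0.02 ± 0.77. The fibroblast marker sum with TGFβ was 30.4 and 32.9 CPM in fl/fl, 37.5 and 127 CPM in dm/- and 25.8 and 26.3 CPM in ΔC/- cells, above all untreated libraries of these lines as given above. It was 105 and 142 CPM in dm/fl cells, below all of their untreated libraries. In D164A/fl, D164A/- and ΔC/fl cells, it was 65.1 to 78.4, 90.6 to 146 and 421 to 507 CPM with TGFβ. There it overlapped the untreated libraries, although Vim was higher without overlap. Over all samples of either state, Pdgfrb reached 494 CPM and Pdgfra 302 CPM, while Lum and Thy1 stayed near 0, and the part of the markers in the Vim response was not tested.

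The simple keratins did not fall together with TGFβ. Krt7 was higher without overlap in 6 of 7 lines, Krt8 in 5 and Krt18 in 5, but no change passed the test over all 56 samples. Among all gene and line pairs, 28.7% were higher without overlap. In ΔC/- cells, Krt8 went from 506 and 624 to 1606 and 3373 CPM, Krt18 from 976 and 1209 to 1913 and 3435 CPM, and Krt7 from 1655 and 1708 to 3346 and 5584 CPM. These were log2 changes of 2.05, 1.24 and 1.36 (limma, adjusted p = 0.0791, 0.122 and 0.232), which passed the test in the 28 samples (adjusted p = 0.00046, 0.00243 and 0.0135). In D164A/- cells Krt7 went from 140 and 209 to 447 and 877 CPM, a log2 change of 1.87 (adjusted p = 0.104, and 0.00248 in the 28 samples), and in dm/- cells from 487 and 450 to 1080 and 1533 CPM (1.46, adjusted p = 0.204 and 0.0104). The exception among the lines was ΔC/fl, in which Krt7 went from 557 and 1197 to 413 and 376 CPM (-1.05, adjusted p = 0.45). Krt18 was lower without overlap in D164A/fl cells only, at 1272 and 1180 CPM untreated and 744 and 919 CPM with TGFβ (-0.57, adjusted p = 0.735).

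Krt19 was expressed in fl/fl cells alone, where it went from 47.4 and 53.5 CPM to 25.1 and 26.3 CPM with TGFβ. The libraries did not overlap and the test was passed (limma, adjusted p = 5.2e-05), but the log2 change of -0.94 ± 0.16 (SE) was under the threshold of 1. All 12 TGFβ-treated libraries of the mutant lines had no read of Krt19.

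Krt15 fell in D164A/- cells with TGFβ from 82.1 and 62 CPM to 2.69 and 0.77 CPM, a ratio of the means of 41.7. The groups did not overlap, and the log2 change of -4.82 ± 0.45 (SE) passed the test (limma, adjusted p = 1.81e-09). Krt5 fell in the same cells from 9.38 and 11.5 CPM to 1.06 and 1.03 CPM (-2.48 ± 0.7, limma, adjusted p = 0.0299), but the call was lost when any of the 4 libraries was left out (adjusted p = 0.145 to 0.195) and with edgeR (adjusted p = 0.0578). Krt5 was also lower without overlap in fl/fl cells, at 2.13 and 2.96 against 0 and 0.147 CPM, and in dm/fl cells, at 1.55 and 3.12 against 0.249 and 0.329 CPM. These low levels gave log2 changes of -1.72 and -1.33 that did not pass the test (limma, adjusted p = 0.182 and 0.296), the first of which did with edgeR (adjusted p = 0.0197). In D164A/fl cells, which had most Krt5, the values of 20 and 81.4 CPM untreated and 20.7 and 77.9 CPM with TGFβ were nearly the same.

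Krt14 fell in ΔC/fl cells from 242 and 571 CPM to 38.6 and 27.7 CPM with TGFβ (-3.47 ± 1.02 SE, limma, adjusted p = 0.0237). The libraries did not overlap, but the call was lost without untreated replicate 2 (-2.85, adjusted p = 0.253), TGFβ replicate 1 (-3.7, adjusted p = 0.101) or TGFβ replicate 2 (-3.24, adjusted p = 0.137). In fl/fl cells Krt14 was lower as well, at 553 and 597 against 150 and 197 CPM (-1.73, adjusted p = 0.54, and 0.0283 in the 28 samples). It moved the other way in dm/- cells, from 121 and 49.8 to 516 and 239 CPM (2.16, adjusted p = 0.246, and 0.00585 in the 28 samples).

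Krt6a fell in fl/fl cells from 31.1 and 30.3 CPM to 0.133 and 0.331 CPM (3 and 9 reads) with TGFβ, and in dm/fl cells from 141 and 102 to 2.65 and 9.57 CPM. Both log2 changes, -4.69 and -4.28 (SE 0.87; limma, adjusted p = 0.000258 and 5e-04), kept their call when each library was left out in turn. In D164A/fl cells it went from 20.3 and 82 to 3.01 and 20.9 CPM, with overlap (-2.17, adjusted p = 0.193). In D164A/- and ΔC/- cells there were at most 6 reads in any untreated library of this experiment, so a fall could not be seen. Krt17 passed the test in no line (log2 changes of -0.22 to 0.93, smallest adjusted p = 0.469). In D164A/fl cells it was at 48.4 and 132 CPM untreated and 42.3 and 121 CPM with TGFβ.

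The differences between the TGFβ responses of the lines were tested as interaction terms, which share the fl/fl samples. Of 60 member and line pairs, 4 differed from the response of fl/fl cells, with Krt15 and Krt6a in D164A/-, Krt6a in ΔC/- and Krt6a in dm/- cells, where 4.28%, 2.01% and 2.78% of all genes tested did. No member differed in D164A/fl, ΔC/fl or dm/fl cells (3.81%, 2.69% and 4.04% of genes). Krt15 fell more in D164A/- than in fl/fl cells by -4.62 ± 0.63 (log2, SE; limma, adjusted p = 6.17e-06), fl/fl cells having almost none to lose. Krt6a differed by 4.55, 4.55 and 4.67 (adjusted p = 0.0222, 0.0383 and 0.0256). It fell in fl/fl cells, and the deleted lines had 0.0386 to 3.91 CPM of it before treatment. With edgeR, the calls of Krt15 and of Krt6a in D164A/- and ΔC/- cells were lost (adjusted p = 1) and that of Krt6a in dm/- cells was kept (0.0404). The Krt6a calls were also lost without either untreated or either treated fl/fl library (adjusted p = 0.0634 to 0.138 over the 3 lines). They were also lost without each of the line's own libraries in D164A/- and ΔC/- cells (adjusted p = 0.0572 to 0.128), and without TGFβ replicate 1 or untreated replicate 2 in dm/- cells (adjusted p = 0.213 and 0.157). The Vim response did not pass this test, at -3.61 in dm/fl (limma, adjusted p = 0.0533) and 3.18 in dm/- cells (adjusted p = 0.14) relative to fl/fl cells. By edgeR the latter did (6.23, adjusted p = 0.0129).

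The responses of the deleted and floxed lines were set against each other after the values had been seen, and 3 of 30 pairs differed, where 1.35% (D164A), 3.13% (ΔC) and 7.31% (dm) of all genes tested did. For dm, Vim rose more in dm/- than in dm/fl cells by 6.79 ± 1.09 (log2, SE; limma, adjusted p = 4.49e-05), and Krt6a fell less by 4.26 ± 1.23 (adjusted p = 0.0241). For D164A, Krt15 fell more in D164A/- than in D164A/fl cells by -4.49 ± 0.63 (adjusted p = 2.73e-05). Untreated D164A/fl cells had 0.318 and 0.804 CPM of Krt15 (9 and 25 reads) and so little to lose on this scale. No member differed for ΔC. The call of Krt6a was lost without dm/fl untreated or treated replicate 1, dm/- treated replicate 1 or dm/- untreated replicate 2 (limma, adjusted p = 0.11 to 0.186) and with edgeR (0.114), and that of Krt15 with edgeR (0.365).

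Wnt3a changed none of the 10 members by the same test, although some alternatives gave calls. With limma, 0 of 70 member and line pairs passed, 5 of 70 had an unadjusted p under 0.05, and edgeR also called 0. Krt6a in D164A/fl cells was called with median of ratios (2.79, limma, adjusted p = 0.0469), and Krt6a and Vim in these cells with the GC trend removed (2.79 and -2.26, adjusted p = 0.0236 and 0.0278). Of all genes tested, 0.378% changed in fl/fl, 4.15% in D164A/fl, 0.654% in D164A/-, 0.225% in ΔC/fl, 0.0509% in ΔC/-, 0.574% in dm/fl and 0.0% in dm/- cells. The widest differences were in the D164A lines. Vim was at 158 and 548 CPM without and 55.2 and 62.9 CPM with Wnt3a in D164A/fl cells (-2.3 ± 0.77 log2, limma, adjusted p = 0.0848), and at 354 and 346 against 110 and 100.3 CPM in D164A/- cells (-1.73, adjusted p = 1). The libraries did not overlap in either line. Krt6a in D164A/fl cells was at 78.2 and 168 CPM without and 771 and 780 CPM with Wnt3a (2.74 ± 0.87, adjusted p = 0.0609). Krt19 in fl/fl cells was at 28.4 and 24.3 against 55 and 29.7 CPM (0.6, adjusted p = 0.0886). Of 70 pairs, 14 did not overlap, 9 higher and 5 lower, where 12.6% and 12.3% of all gene and line pairs were. Leaving out a library could give a call, that of Vim in D164A/fl without untreated replicate 1 (-3.2, limma, adjusted p = 0.0399), of Krt15 in D164A/- without Wnt3a replicate 1 (-2.56, adjusted p = 2.8e-05), and of Krt19 and Krt6a in fl/fl cells without Wnt3a replicate 2 (1.04 and 3.36, adjusted p = 9.66e-06 and 0.0204).

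To read the members as a filament set, levels were divided by coding length and summed within each type. The makeup is given with no test because it is a score over the members. The simple keratins Krt8, Krt18, Krt7 and Krt19 made up 79.4% to 90.7% of the keratin sum in the untreated fl/fl libraries and 99% to 99.7% in ΔC/- libraries. In D164A/fl cells their share ran from 38.4% to 88.8%, the lower values being those of the Wnt3a experiment, where Krt14, Krt5 and Krt17 were higher. The ratio of type II to type I keratins was 0.437 to 0.717 in untreated D164A/fl and 0.594 to 0.83 in D164A/- cells, and 1.41 to 1.96 in ΔC/- cells. Its level depends on the length used, since Krt7 has 4094 bases of mRNA and 1371 of coding sequence. Over all 56 libraries it ran from 0.437 to 2.325 (median 1.26) per coding length. Per mRNA length it ran from 0.246 to 1.28 (median 0.685).

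**Figure D4:**
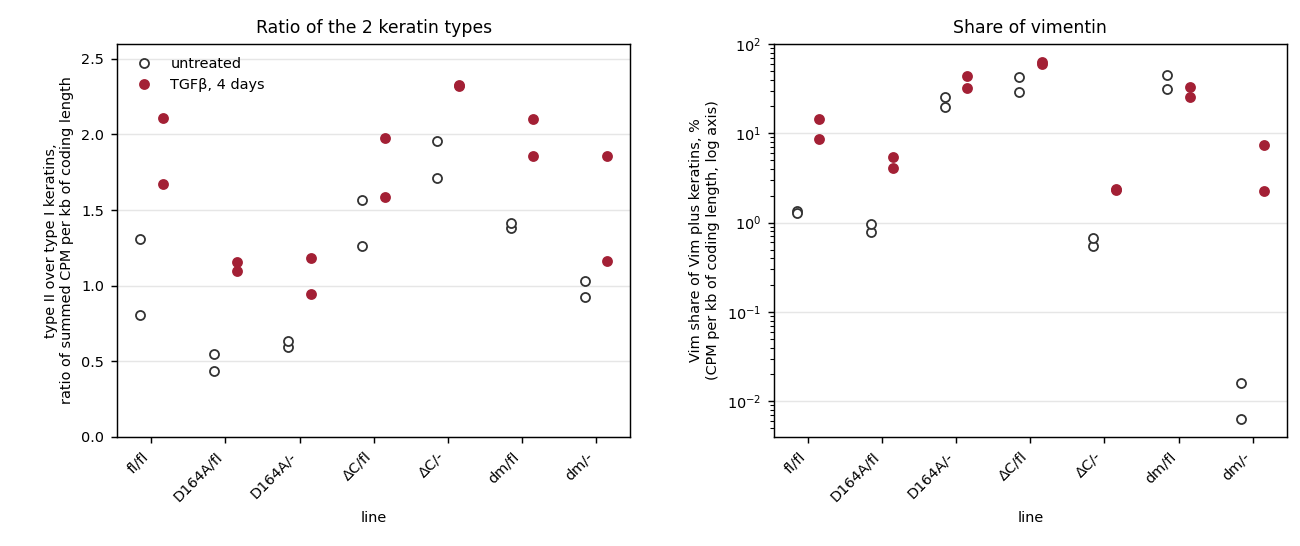
Ratio of summed type II (Krt8, Krt7, Krt5, Krt6a) to type I (Krt18, Krt19, Krt14, Krt15, Krt17) levels, left, and the share of Vim in the sum of Vim and the 9 keratins, right, from CPM per kb of coding length in the 28 libraries of the TGFβ experiment. Both treated libraries have a higher ratio than both untreated libraries in 7 of 7 lines, and a higher Vim share in 6 of 7 lines, the exception being dm/fl.

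With TGFβ the ratio of type II to type I keratins was higher without overlap in 7 of 7 lines. It was 0.805 and 1.31 untreated and 1.67 and 2.11 treated in fl/fl cells, 0.437 and 0.548 against 1.15 and 1.1 in D164A/fl cells, and 0.594 and 0.636 against 0.946 and 1.18 in D164A/- cells. The gap was narrow in ΔC/fl cells, at 1.26 and 1.56 against 1.98 and 1.59, and in dm/- cells, at 1.03 and 0.925 against 1.16 and 1.86. The type II sum was higher in 6 lines, and the type I sum was higher in 3, lower in 2 and overlapped in 2. With Wnt3a the ratio was higher in 1 line, lower in 1 and overlapped in 5. The share of Vim in the sum of all 10 genes was 1.27% and 1.36% in untreated and 8.63% and 14.3% in treated fl/fl cells, 28.8% and 42.6% against 59.4% and 63.6% in ΔC/fl cells, and 0.00635% and 0.0159% against 2.26% and 7.47% in dm/- cells. In fl/fl, D164A/fl, ΔC/- and dm/- cells it did not exceed 14.3% in any library of this experiment.

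Other filament genes were read from fixed lists. Of 27 other keratins, 25 were in the table and 12 passed the filter. With TGFβ, 0 rose and 1 fell in fl/fl cells (Krt79, a keratin of gland ducts and hair follicles, by -2.4), and 0 rose and 3 fell in dm/fl cells (Krt79 by -2.57, Krt78 by -1.73, Krt4 by -1.41). Of all genes tested, 6.25% changed with TGFβ in fl/fl and 10.3% in dm/fl cells. In D164A/- cells Krt80 rose (2.15) and Krt23 fell (-1.12), in ΔC/- cells Krt20 rose (1.56), and none changed in D164A/fl, ΔC/fl and dm/- cells. Krt23 went from a mean of 1.32 to 0.0624 CPM and Krt20 from 1.29 to 5.79 CPM. No untreated or TGFβ-treated mean of Krt20 in another line exceeded 0.575 CPM. It may thus have passed the filter through ΔC/- cells alone. More of the 12 keratins changed with Wnt3a, and nearly all in 1 line. Of the 12, 8 rose and 0 fell in D164A/fl cells, namely Krt6b (5.79), Krt16 (4.54), Krt90 (3.76), Krt78 (3.52), Krt79 (2.68), Krt80 (1.9), Krt1 (1.85) and Krt23 (1.26), of which Krt6b and Krt16 are stress keratins like Krt6a (limma, largest adjusted p = 0.0494). Of all genes tested, 4.15% changed with Wnt3a in D164A/fl cells. The median over the 12 was 1.88 in these cells, beside -0.04 over all genes tested. In dm/fl cells Krt76 rose (1.23), and none changed with Wnt3a in the other 5 lines. In untreated and TGFβ-treated cells, line means were at most 0.0319 CPM for Krt1 and 0.347 CPM for Krt76. Both therefore passed the filter only through Wnt3a-treated samples, so their rise with Wnt3a follows from the filter. These genes were not refitted under the alternatives. Without TGFβ, 5 of the 12 were lower in dm/- than in dm/fl cells, Krt79 (-6.61), Krt16 (-3.28), Krt78 (-2.02), Krt6b (-1.7) and Krt4 (-1.69), and 3 were lower in D164A/- than in D164A/fl cells, Krt80 (-1.49), Krt6b (-1.43) and Krt4 (-1.03). Of all genes tested, 18.3% differed between the dm lines and 9.45% between the D164A lines. The median change of the 12 with TGFβ lay between -0.48 (dm/fl) and 0.03, beside medians of -0.03 to 0.03 over all genes tested.

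Of 12 other intermediate filament genes, all in the table, 6 passed the filter. Nes, which encodes nestin and copolymerizes with vimentin, rose with TGFβ in fl/fl (2.02), ΔC/fl (3.15), ΔC/- (1.75) and dm/fl cells (2.71), the last being a line in which Vim did not move (limma, largest adjusted p = 0.000457). In dm/fl cells it went from a mean of 7.35 to 53.5 CPM. Synm, which encodes synemin, a partner of vimentin and desmin, fell in fl/fl (-2.3), ΔC/fl (-2.49) and dm/fl cells (-3.74), and Des, which encodes desmin, in ΔC/- cells (-1.13). Des was low there, at a mean of 1.49 CPM untreated and 0.117 CPM with TGFβ. In the other lines no untreated or TGFβ-treated mean exceeded 0.258 CPM. Des may thus have passed the filter through ΔC/- cells alone, so the call is no independent support. Between deleted and floxed lines, Nes was lower in dm/- than in dm/fl cells by -3.26, as Vim was, but higher in ΔC/- than in ΔC/fl cells by 1.02, where Vim was lower. In dm/- cells neither Nes nor Synm passed the test with TGFβ, and Nes averaged 0.0458 CPM untreated and 0.274 CPM with TGFβ.

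Of 16 linkers of filaments to desmosomes and hemidesmosomes, 15 passed the filter. Ppl, which encodes periplakin, fell with TGFβ in 6 of 7 lines, by -1.76 to -4.11 on the log2 scale, and from a mean of 98.8 to 7.54 CPM in fl/fl cells. It was not called in D164A/- cells, where it averaged 53.4 CPM untreated and 19.1 CPM with TGFβ. Most changes were in ΔC/fl cells, the line in which the fall of Krt14 was called. There 6 of the 15 were lower and 1 higher, where 7.74% of all genes tested changed. Among them were Dsg3 (desmoglein 3, -4.38), Ppl (-3.96), Evpl (envoplakin, -2.87) and Dsp (desmoplakin, -1.83). In fl/fl cells 3 were lower, Dsg3 (-3.85), Ppl (-3.52) and Perp (-1.42), where 6.25% of all genes tested changed. The median over the 15 was -0.95 in ΔC/fl and -0.29 in fl/fl cells and between -0.12 and 0.16 in the other lines. Over all genes tested, the medians lay between -0.03 and 0.03. Without cytokine, Dsc2, which encodes the cadherin desmocollin 2, was lower than in fl/fl cells in all 6 mutant lines, by -2.72 to -7.52, as Krt19 was. It averaged 186 CPM in fl/fl, 29.6 in dm/fl, 27.5 in dm/- and 3.23 in D164A/- cells, had a mean of 0.0169 CPM in D164A/fl cells and no read in untreated ΔC cells.

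Across the means of the 28 conditions, the genes tested whose log2(CPM + 1) followed each member most closely were, by Pearson's r, Cep250 for Krt8 (0.902), Tnfrsf12a for Krt18 (0.838), Pstpip1 for Krt7 (0.859), Kcnk5 for Krt19 (0.993), Fat2 for Krt5 (0.956), Ctdspl for Krt14 (0.84), Slc13a3 for Krt15 (0.986), Gnai1 for Krt17 (0.959), Dmkn for Krt6a (0.934) and Sec24d for Vim (0.911). The conditions share lines and libraries, so these values describe the table and carry no test. For Krt6a, the next 2 were Sprr1b (0.911) and Sprr1a (0.869), genes of the cornified envelope, and for Krt14 the second was Krt6a itself (0.817). The value for Krt19 rests on the single line that had the gene, and that for Krt15 on the D164A lines. Among the members, the luminal pair Krt8 and Krt18 had an r of 0.579 and Krt8 and Krt7 of 0.737, the basal pair Krt5 and Krt14 had 0.56, and Krt5 and Krt17 had 0.795. Vim was not opposed to the keratins as a group, with r between -0.309 (Krt18) and 0.441 (Krt8) over these conditions.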

How the data were processed

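Poly(A) RNA was sequenced as stranded single-end libraries from 56 samples. The deposited values are a signal in reads per M reads of an effective library size (CPM): per the methods, the authors aligned reads to mm10 with STAR, kept unique hits, counted reads starting in RefSeq exons with QuasR and scaled them with edgeR. The design assumed plain CPM, and the columns sum to differing totals. Dividing each value by the worth of 1 read gave whole reads for 100.0% of values within 0.001 reads, and these sums are the depths. Intervals and floors (3 reads) cover counting error only. Genes that reached 1 CPM in 2 or more samples were kept (13754 of 20314), and log2(CPM + 1) was fitted with limma 3.58.1 (R 4.3.3), 1 model with 28 condition means, and Benjamini-Hochberg adjustment over all 13754 genes of each contrast. Calls needed an adjusted p of at most 0.05 and a log2 fold change of at least 1. Alternatives were edgeR 4.0.16 on whole reads, another pseudocount (0.1), no filter, median of ratios, a GC trend removed, a replicate block, fewer samples and each library left out. Fits were tested on simulated data. Positions and coding lengths come from a GENCODE annotation of GRCm38 and promoters from RefSeq. Tables were made with Python 3.11.15 and pandas 2.3.3. All 10 members are named. Other genes were named from fixed lists or as the 3 most alike at most. Members and lists were chosen with earlier results of these data known. The authors' own comparisons were not used.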

Additional observations from a re-analysis of the deposited data

Results flagged for a closer look

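The TGFβ response differed between lines, by a test of the difference itself, for 7 member and line pairs, all of them also given with the comparisons above. Krt15 differed by -4.62 on the log2 scale between D164A/- and fl/fl cells and by -4.49 between D164A/- and D164A/fl cells. Krt6a differed from fl/fl cells by 4.55 in D164A/-, by 4.55 in ΔC/- and by 4.67 in dm/- cells, and by 4.26 between dm/- and dm/fl cells. Vim differed by 6.79 between dm/- and dm/fl cells. The comparisons with fl/fl cells share the fl/fl samples. Before treatment, Krt6a had 1 to 6 reads in D164A/- and ΔC/- libraries, and Krt15 had 7 and 2 in fl/fl and 9 and 25 in D164A/fl libraries. From these levels a fall could not be seen or could only be small on the log2(CPM + 1) scale. With edgeR, only the calls of Krt6a in dm/- against fl/fl cells and of Vim in dm/- against dm/fl cells were kept. The conditions have 2 samples each, too few to look for a single sample far from its group.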

How the results depend on the processing

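No call of a member changed direction under any alternative run. Taking each called member value under each alternative, 534 values kept their side of the threshold and 41 did not, and with 1 library left out 375 did and 65 did not. The 8 changes with TGFβ became 19 with a replicate block, 15 with the GC trend removed, 22 with both, 18 with a block of crossed numbers and 21 with the 28 samples of the TGFβ experiment (the last 2 chosen after seeing the data), and all 8 were among the 19, the 15, the 22 and the 21. With only the samples compared there were 6, of which 3 were shared, and with edgeR 8, of which 7 were shared. The 0 changes with Wnt3a became 1 with median of ratios, 4 with the block, 2 with the GC trend removed, 5 with both and 3 with crossed numbers. The 4 with the block were Vim in D164A/fl (-2.3, limma, adjusted p = 0.00122) and D164A/- (-1.73, 0.0493), Krt6a in D164A/fl (2.74, 0.0317) and Krt15 in D164A/- cells (-1.22, 0.0167). The 4 differences of TGFβ responses from fl/fl cells became 2 with edgeR, 9 with only the samples compared, 10 with the block, 19 with block and GC trend removed and 10 with the 28 samples. The 3 between deleted and floxed lines became 1, 5, 11, 12 and 9 in the same order. Untreated lines differed from fl/fl cells in 30 pairs, and in 24 and 23 with the TGFβ or the Wnt3a experiment alone. Deleted and floxed lines differed in 14 pairs, and in 10 with either alone. With 1 library left out, the counts ranged from 7 to 9 for TGFβ, 0 to 3 for Wnt3a, 27 to 32 and 13 to 15 for the untreated comparisons, and 1 to 5 and 2 to 3 for the differences of responses. In such fits a lone sample is assumed to vary like the other groups. The cause of these shifts was not tested. Samples with the same replicate number deviated together in 12 of 14 pairs of conditions (r above 0.1, range -0.197 to 0.932), so the numbers do not pair all samples, and the block is given here alone. With 2 samples per condition, Krt6a in untreated D164A/- and ΔC/- cells of the TGFβ experiment is limited by depth, at 1 to 6 reads.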
